A study of Mus musculus with 18 samples.

Results

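The comparison described here set kidneys of 1-month-old mice labelled Aprt KO against kidneys of their control littermates. It uses 6 of the 18 arrays of the series, with 1 array per mouse. They are 3 Aprt KO and 3 control mice of strain C57, paired by the number in the sample title into 1 female and 2 male littermate pairs, and the labels name no treatment for any group. The study also holds 6 Aprt KO and 6 control mice at 7 days of age. These form same-sex littermate pairs too, but the numbers in their titles differ within a pair. They are used here to estimate the spread and to test whether a difference was the same at both ages. The series text writes the genotypes as Aprt-/- and Aprt+/+ and calls the older mice adult. The labels name no tissue-specific driver, and crystals, urine and histology were not analysed here.

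Aprt encodes adenine phosphoribosyltransferase, which salvages adenine to adenosine monophosphate. Without it adenine is oxidised by xanthine dehydrogenase to dihydroxyadenine, which is poorly soluble, crystallises in the tubules and is known to cause stones and tubulointerstitial disease. In an injured kidney, tubule cells make lipocalin-2, keratins and S100 proteins, while interstitial fibroblasts and myofibroblasts deposit collagen I and collagen III. Small leucine-rich proteoglycans such as decorin bind those fibrils, and matricellular proteins such as periostin organise them.

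Every signal below is an Affymetrix probe set intensity on a linear scale, and every difference is Aprt KO minus control on the log2 scale after adding a pseudocount of 29, so folds of dim genes are understated. A gene is said to have risen or fallen where the limma adjusted p was under 0.05. The trimmed mean signal was between 499.8 and 499.9 on the 6 arrays and the median was 160.1 to 178.9. The kidney markers Umod, a glycoprotein of the thick limb, Egf of the distal nephron and Kap, a proximal tubule protein under androgen control, were bright on each array, with Umod at 7074, 6630.2 and 9834 in controls 1 to 3 and 7656, 5943 and 9912 in Aprt KO mice 1 to 3. Xist and Eif2s3y matched the labelled sex on 6 of 6 arrays.

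Aprt itself was a weak check of the genotype, since its 3 probe sets were dim (percentiles 35, 20.9 and 17.7 of mean signal) and fell below the filter for testing. The brightest read 109.5, 108 and 104 in controls 1 to 3 and 86.5, 57.8 and 52.3 in Aprt KO mice 1 to 3. Each Aprt KO array lay below each control on that probe set, by -0.54 (SE 0.33), with an adjusted p of 1.00 over all probe sets by limma. The other Aprt probe sets differed by -0.12 and -0.07, with overlapping groups. Whether any of these probes lies in the altered part of the gene is not known here.

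At 1 month 17 genes rose and 1 fell among 5744 genes tested, which is 0.313% of them (0.296% higher and 0.0174% lower). By size they were led by Lcn2 and Col1a1, and most of the others encode collagens, proteoglycans and matricellular proteins or are known from injured epithelium and complement. The spread of the difference over all genes was centred, with 2872 of 5744 higher (50%) and a median of 0.00. Both sides were unequal in the tail. At an unadjusted p under 0.05 there were 203 genes higher and 62 lower, and 34 genes were over 2-fold higher against 4 over 2-fold lower. Of these, 7 and 1 respectively were called. In 17 of the 18 called genes the signals of the groups did not overlap, against 6.15% of all genes (4.20% with Aprt KO above and 1.95% below). All 18 moved to the same side in 3 of 3 pairs, against 16.1% higher and 13.9% lower in 3 of 3 pairs over all genes. Both counts describe the signals that made the calls, so they follow largely from the calls and give no separate support.

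**Figure D1:**
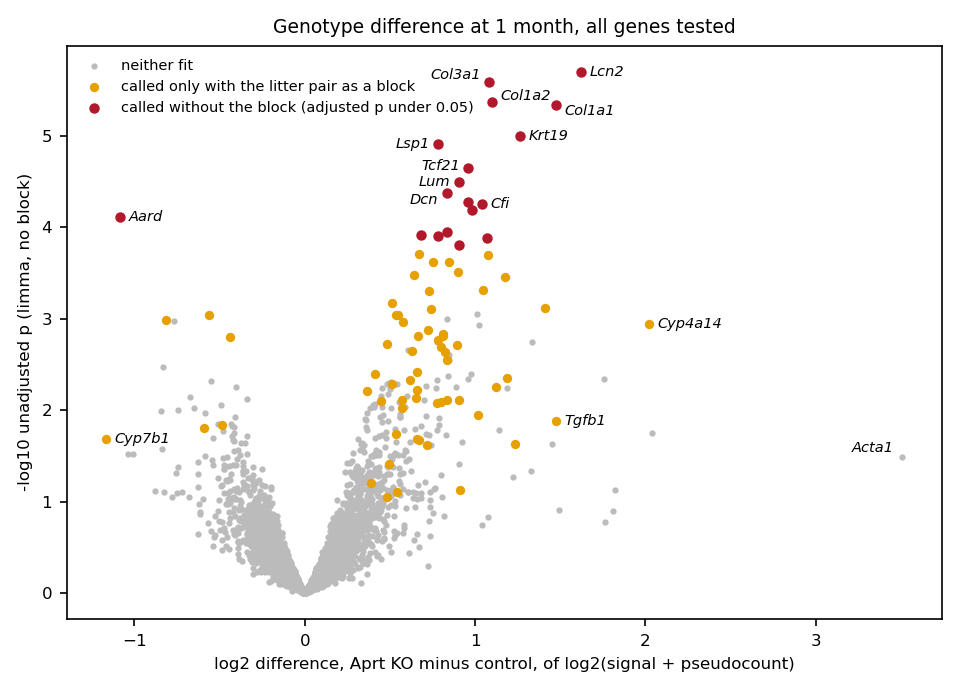
Genotype difference at 1 month for the 5744 genes tested, as log2 difference (Aprt KO minus control, horizontal axis) against minus log10 of the unadjusted limma p (vertical axis). Red points are the 18 called genes, orange points the 61 genes called with the litter pair as a block and not without it, and the called genes lie almost wholly on the side of higher signal in Aprt KO.

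The littermate pairing changed how many genes could be called. With the litter pair as a fixed block 79 genes passed (1.38%), 72 higher and 7 lower, and they included all 18 called without it. Of the other 61, 54 also passed with litter as a random block and 7 did not; below, the block is the fixed one unless said otherwise. Fitted to the 6 arrays alone, Col1a1 was the 1 gene to pass without the litter block (limma adjusted p 0.0269), and 10 passed with it. The counts also moved with each array left out. They were 7, 4 and 9 genes without control 1, 2 or 3, and 7, 10 and 6 without Aprt KO 1, 2 or 3. Leaving out either female array removes the female pair from the comparison, because a sex term is fitted. Lcn2 was the only called gene to pass in 6 of 6 such omissions. Krt19, Col1a2 and Col3a1 passed in 4 of 6, and Lum, Mfap2, Dcn, Serping1 and Aard in 0 of 6, though the direction of all 18 was kept in each omission. With whole pairs left out, 0 of the 18 passed in 3 of 3 omissions. Lcn2 passed in 1 of 3, with a limma adjusted p of 0.0653 without pair 2 and 0.0769 without pair 3. Col1a1 passed in 0 of 3.

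Of the fibrillar collagens, the chains of collagen I and collagen III rose. Fibrillar collagens are the rod-like chains that form the tensile fibres of the interstitium, collagen I being built of Col1a1 and Col1a2 chains and collagen III of Col3a1. Of 9 listed genes 5 were tested, 3 rose, 5 of 5 were higher in 3 of 3 pairs and the median difference was 1.08, beside 0.296% of all genes called higher and a median of 0.00. Col1a1 read 605, 756 and 835 in controls 1 to 3 and 1809.6, 2253 and 2166 in Aprt KO mice 1 to 3. Every Aprt KO mouse was far above every control, and the mean went from 732 ± 117 to 2076 ± 235 (SD, n = 3). The difference was 1.47 (SE 0.23, limma adjusted p 0.00653). Left-out arrays hardly moved its size (1.44 to 1.52), but the limma adjusted p was 0.0576 without control 1, 0.0547 without control 2 and 0.0585 without Aprt KO 1.

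Col3a1 read 340.4, 503 and 816 in controls 1 to 3 and 839, 1238 and 1407 in Aprt KO mice 1 to 3. The groups did not overlap, but only just, because control 3 stood close to Aprt KO 1. Within litters the gap was clear, and the difference was 1.08 (SE 0.16, limma adjusted p 0.00653). Col1a2 read 418, 719 and 541 in controls 1 to 3 and 1088, 1439 and 1118 in Aprt KO mice 1 to 3, a difference of 1.10 (SE 0.17, limma adjusted p 0.00653). Both lost their call without control 1 or Aprt KO 1, at adjusted p of 0.0576 and 0.0585 for Col3a1 and of 0.0750 and 0.0746 for Col1a2. The collagen V chains, which nucleate collagen I fibrils, split. Col5a2 read 89.9, 84.6 and 107 in controls 1 to 3 and 219.7, 178 and 179.5 in Aprt KO mice 1 to 3, with no overlap, and differed by 0.85 (SE 0.18, limma adjusted p 0.0621, 0.00394 with the litter pair as a block, 0.0165 with a pseudocount of 1). Col5a1 differed by 0.27 with overlapping groups.

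Other probe sets of these genes gave smaller values, and with every probe set tested on its own 0.0831% of 10833 were called. The second Col1a1 probe set read 656, 795 and 997 in controls 1 to 3 and 1185, 1265 and 1547 in Aprt KO mice 1 to 3, again without overlap, and differed by 0.70. The other Col3a1 probe sets were higher by 0.78 and 0.59. The second Col1a2 probe set did not follow the first. It read 1158, 1327 and 808 in controls 1 to 3 and 983, 1163 and 785 in Aprt KO mice 1 to 3, lower in 3 of 3 pairs, with a difference of -0.15, so the rise of Col1a2 rests on 1 of 2 probe sets. Where probe sets are ranked on the 6 arrays alone, that second set stands for the gene and Col1a2 is not called.

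For the collagen chains that rose, the sequence just upstream of their starts is shown, with that of Lcn2 beside them as a gene of another group. Each window holds the 250 bases before the start in RefSeq (GRCm38.p6), written 5′ to 3′ on the strand of the gene; no window was matched for Col1a1. Col1a2 lies at chr6:4505368-4505617 on the plus strand, Col3a1 at chr1:45311288-45311537 on the plus strand and Lcn2 at chr2:32387740-32387989 on the minus strand. Capitals mark matches to CCAAT, the box bound by NF-Y, or to TATAAA, the TATA box, searched on both strands together with 1 kappa B site.
Col1a2: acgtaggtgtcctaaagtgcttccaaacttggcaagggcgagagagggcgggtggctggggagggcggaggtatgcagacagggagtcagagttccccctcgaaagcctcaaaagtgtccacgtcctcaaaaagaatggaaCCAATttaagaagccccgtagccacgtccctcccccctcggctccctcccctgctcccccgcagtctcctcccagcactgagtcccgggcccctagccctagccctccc
Col3a1: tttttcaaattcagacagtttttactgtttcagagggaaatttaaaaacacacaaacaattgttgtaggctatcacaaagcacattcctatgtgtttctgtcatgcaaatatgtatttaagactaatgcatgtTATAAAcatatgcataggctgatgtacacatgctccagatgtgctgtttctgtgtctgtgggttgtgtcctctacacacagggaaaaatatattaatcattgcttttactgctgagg
Lcn2: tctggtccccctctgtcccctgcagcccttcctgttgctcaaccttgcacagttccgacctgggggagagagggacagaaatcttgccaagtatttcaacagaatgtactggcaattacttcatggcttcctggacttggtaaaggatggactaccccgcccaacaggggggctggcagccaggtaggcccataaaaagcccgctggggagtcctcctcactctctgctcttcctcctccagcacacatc
The Col1a2 window holds a CCAAT whose first base is 109 bases before the start, and the Col3a1 window a TATAAA at 117 bases. The Lcn2 window holds none of these letters. CCAAT occurs in 33.8% of all 32851 windows of this length, TATAAA in 12.4% and the kappa B site in 0.1%, so these matches are common ones.

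**Figure D2:**
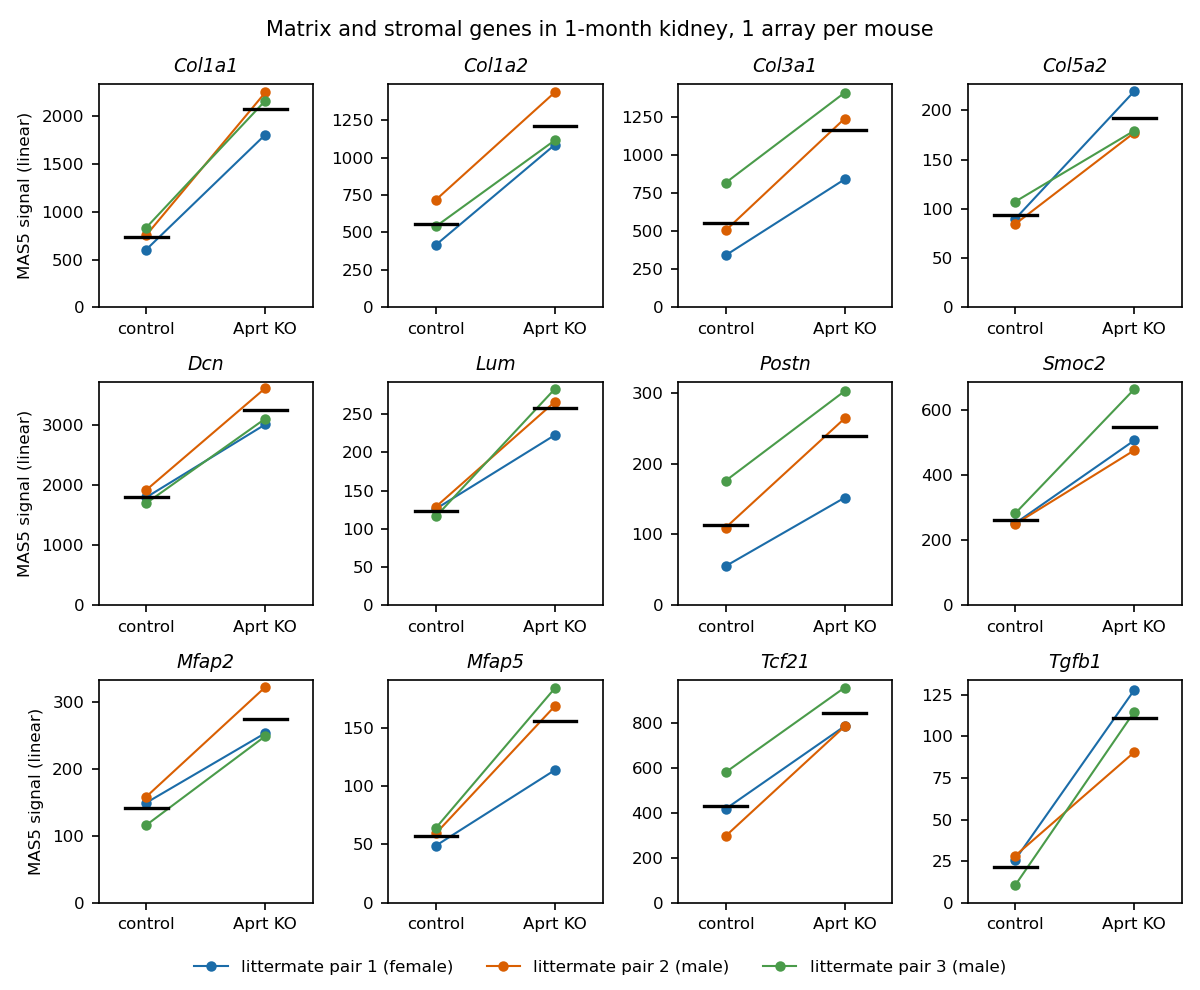
MAS5 signal (linear, vertical axes from 0) of 12 matrix and stromal genes in the 1-month kidneys, 1 point per mouse, lines joining littermates and black bars giving group means. In each panel the Aprt KO mouse of each of the 3 litters is higher than its littermate, while Postn and Col3a1 show litters that start at different levels.

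Collagens outside the fibrillar class showed less. Of the network, beaded-filament and multiplexin chains, called were 0 of 12 by limma (1 higher and 0 lower at an unadjusted p under 0.05, and 2 rising and 0 falling with the litter block), with 9 higher and a median of 0.08. Col15a1, of the basement membrane zone, read 439, 653 and 639.8 in controls 1 to 3 and 912, 914 and 923 in Aprt KO mice 1 to 3. Its groups did not overlap and it differed by 0.66 (limma adjusted p 0.739, 0.0102 with the litter block). The collagen VI chains Col6a1, Col6a2 and Col6a3 were higher by 0.45, 0.44 and 0.48, each in 3 of 3 pairs, and Col6a3 passed with the fixed litter block (limma adjusted p 0.0292) but not with the random one (0.148). Basement membrane genes called were 0 of 15 by limma (0 higher and 0 lower at an unadjusted p under 0.05, and 0 rising and 0 falling with the litter block), with 11 higher and a median of 0.16. Their largest members by p were the collagen IV chains Col4a2 (0.31) and Col4a1 (0.30). The enzymes and chaperones that hydroxylate, fold and cross-link collagen had a median of 0.12. Called were 0 of 10 by limma (0 higher and 0 lower at an unadjusted p under 0.05, and 0 rising and 0 falling with the litter block).

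Decorin and lumican, the small leucine-rich proteoglycans that coat and space collagen fibrils, rose. Lum read 126, 129 and 116 in controls 1 to 3 and 223, 267 and 283 in Aprt KO mice 1 to 3. The controls lay close to each other and all Aprt KO mice well above them, a difference of 0.90 (SE 0.16, limma adjusted p 0.0228). Dcn read 1791, 1913 and 1694 in controls 1 to 3 and 3004, 3608 and 3100.2 in Aprt KO mice 1 to 3, again without overlap, and differed by 0.83 (SE 0.15, limma adjusted p 0.027). Biglycan, Bgn, was bright and differed by 0.39, with a limma adjusted p of 0.0265 for litter as a fixed and 0.109 as a random block. Fmod was dim and read 13.1, 15.8 and 16 in controls 1 to 3 and 20.6, 31.3 and 123 in Aprt KO mice 1 to 3, so that Aprt KO 3 alone stood well above the rest, and differed by 0.81 (SE 0.45). Ogn, osteoglycin, differed by 0.11 and was lower in pair 3. In all 5 of 5 tested members were higher and 2 rose, with a median of 0.81, and the list holds 10 genes. Over all genes 50% were higher and 0.296% rose.

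Matricellular and elastic fibre genes gave the largest group of rises after adjustment for litter. Of 23 tested 3 rose (Postn, Smoc2 and Mfap2), 20 were higher, 18 of them in 3 of 3 pairs, and the median was 0.54. With the litter block 11 of 23 rose and 0 fell, where 1.25% of all genes rose. Smoc2, a calcium-binding matricellular protein, read 251, 249 and 282 in controls 1 to 3 and 506, 475 and 663 in Aprt KO mice 1 to 3. The 3 controls were within a narrow band that no Aprt KO mouse approached, and the difference was 0.98 (SE 0.19, limma adjusted p 0.0306). Postn, periostin, read 55.0, 109 and 176 in controls 1 to 3 and 152, 264 and 302 in Aprt KO mice 1 to 3. Its groups overlapped, because control 3 was above Aprt KO 1, yet each Aprt KO mouse was above its littermate. The steps were 1.11, 1.08 and 0.70 in pairs 1 to 3, smallest in pair 3. The difference was 0.96 (SE 0.18, limma adjusted p 0.0292, 0.00103 with the block). Mfap2, a protein of elastin-associated microfibrils, read 149.7, 159 and 116 in controls 1 to 3 and 254, 323 and 249 in Aprt KO mice 1 to 3 and differed by 0.84 (SE 0.17, limma adjusted p 0.0442).

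A related microfibril protein, Mfap5, read 48.9, 59.4 and 64.2 in controls 1 to 3 and 114, 168 and 184 in Aprt KO mice 1 to 3. No Aprt KO mouse overlapped a control, and the difference of 1.07 had a limma adjusted p of 0.0574 without and 0.00094 with the litter block. The fibulins Fbln2 (0.75) and Fbln1 (0.67), Mfap4 (0.84), the Sparc relative Sparcl1 (0.66), the proteoglycan versican Vcan (0.80), Tgfbi (0.53) and the calcification inhibitor Mgp (0.66) passed with the block, at limma adjusted p from 0.00474 to 0.0483. All 7 were above their littermates in 3 of 3 pairs. At a pseudocount of 1 and no block Mfap5, Fbln2 and Mfap4 passed too (limma adjusted p 0.0157, 0.0305 and 0.0332). The values without the block as reported here were 0.0621 for Fbln2 and 0.281 to 0.751 for the rest.

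Genes of the cells that make this matrix were higher too, with fewer calls. Tcf21, a transcription factor of stromal progenitors and podocytes, was the only 1 of 22 fibroblast and smooth muscle genes to rise, reading 417, 296 and 579.5 in controls 1 to 3 and 784, 783 and 956 in Aprt KO mice 1 to 3. All Aprt KO mice lay above all controls, and the difference was 0.96 (SE 0.17, limma adjusted p 0.0184). In the list 20 of 22 were higher, with a median of 0.42, beside 50% of all genes higher and 0.296% called higher. Acta2, the smooth muscle actin of vessels and myofibroblasts, read 442, 369 and 325 in controls 1 to 3 and 563, 556 and 515 in Aprt KO mice 1 to 3. Its groups did not overlap but the difference of 0.50 did not pass (limma adjusted p 0.413), nor did it with the fixed litter block (0.0703), while it passed with the random one (0.0328). Tagln (0.67), a smooth muscle actin-binding protein, Tpm1 (0.41) and Islr (0.55) did not pass without the block and did with it, at limma adjusted p of 0.0391, 0.0409 and 0.0434. Tagln also passed without a block with a pseudocount of 1 (limma adjusted p 0.0332) or with the filter at the 60th percentile (0.0417). In bulk kidney RNA, more cells of a type and more RNA per cell cannot be told apart.

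Of the ligands, receptors and targets of the TGF-beta and BMP pathways, called were 0 of 18 by limma (3 higher and 0 lower at an unadjusted p under 0.05, and 2 rising and 0 falling with the litter block), with 13 higher and a median of 0.14. Tgfb1, the ligand best known for driving matrix synthesis, read 26.0, 28.4 and 10.7 in controls 1 to 3 and 128, 90.6 and 115 in Aprt KO mice 1 to 3. Each control was at or below the pseudocount and each Aprt KO mouse well above it. The difference was 1.48 with a wide error (SE 0.54, limma adjusted p 0.593, 0.00821 with the litter block). Both 1-month means, 21.7 and 111, lay under the filter of 118.6, which Tgfb1 passed through its 7-day means of 340 and 545. Id3, a target of BMP signalling, differed by 0.58 and also passed with the block (limma adjusted p 0.00821). Outside that list stood Nbl1, a secreted BMP antagonist, which read 98.9, 65.1 and 37.1 in controls 1 to 3 and 262, 232 and 107 in Aprt KO mice 1 to 3, with Aprt KO 3 hardly above control 1. It differed by 1.23 (limma adjusted p 0.779, 0.0483 with the fixed and 0.053 with the random litter block). Matrix-degrading enzymes and their inhibitors called were 0 of 10 by limma (3 higher and 0 lower at an unadjusted p under 0.05, and 0 rising and 0 falling with the litter block), led in size by Mmp12, the macrophage elastase, at 1.76 (limma adjusted p 0.395) and Timp1 at 0.96, where Aprt KO 2 was below its littermate.

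Markers of injured tubules were the other group with several rises. Of 26 tested 3 rose (Lcn2, Krt19 and S100a6), 24 were higher, 20 of them in 3 of 3 pairs, and the median was 0.37. With the litter block 9 rose. Over all genes 0.296% were called higher, 16.1% were higher in 3 of 3 pairs and 1.25% rose with the block. Lcn2, the iron-sequestering lipocalin used as a marker of tubular damage, read 51.0, 56.8 and 71.2 in controls 1 to 3 and 129.5, 288 and 371 in Aprt KO mice 1 to 3. The controls were all dim and Aprt KO 1, the female, was the lowest of the Aprt KO mice. The difference was 1.62 (SE 0.23, limma adjusted p 0.00653). A second Lcn2 probe set read 174, 171 and 158 in controls 1 to 3 and 171, 187 and 145 in Aprt KO mice 1 to 3, a difference of -0.01, so this rise too rests on 1 of 2 probe sets. Where probe sets are ranked on the 6 arrays alone, that second set stands for the gene and Lcn2 is not called.

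Krt19, a keratin of simple epithelia and of the collecting duct, read 161, 82.9 and 128 in controls 1 to 3 and 278, 285 and 451 in Aprt KO mice 1 to 3. The groups were well apart, with a difference of 1.26 (SE 0.21, limma adjusted p 0.0114). It lost its call without control 2 (0.0753) and without Aprt KO 3 (0.0814). A second, much dimmer Krt19 probe set (percentile 25 of mean signal) differed by 0.15 and was higher in 2 of 3 pairs. S100a6, a calcium-binding protein, read 2016, 1194 and 1617 in controls 1 to 3 and 2820.2, 3033 and 4354 in Aprt KO mice 1 to 3 and differed by 1.07 (SE 0.22, limma adjusted p 0.0442). Sprr1a, a cornified-envelope precursor, read 808, 513 and 527 in controls 1 to 3 and 1149, 1088 and 2171 in Aprt KO mice 1 to 3, with a difference of 1.17 that passed with the block (limma adjusted p 0.0483). The keratin Krt18 (0.91), the actin-binding peptide Tmsb10 (0.63) and the annexins Anxa1 (0.57) and Anxa2 (0.62) behaved likewise, at limma adjusted p of 0.00108 to 0.0161 with the block, and Tmsb10 also passed without it after quantile normalization (limma adjusted p 0.0327). Clusterin, Clu, read 1812, 1149 and 1509 in controls 1 to 3 and 2019.8, 1648 and 2049 in Aprt KO mice 1 to 3; the groups overlapped and the difference of 0.37 did not pass.

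In the complement and acute phase list 12 of 13 were higher, with a median of 0.35. Lcn2, Cfi and Serping1 rose, 3 of 13, where 0.296% of all genes rose. The other pair encode brakes on complement. Serping1, the C1 inhibitor, read 974, 997 and 1226 in controls 1 to 3 and 1574, 1685 and 1923 in Aprt KO mice 1 to 3. All Aprt KO mice were above all controls, a difference of 0.68 (SE 0.14, limma adjusted p 0.0442). Cfi, the protease that inactivates deposited complement, was dim at 65.9, 11.8 and 37.7 in controls 1 to 3 and 149, 102 and 67.6 in Aprt KO mice 1 to 3, so that Aprt KO 3 was barely above control 1, and differed by 1.04 (SE 0.20, limma adjusted p 0.0292). The C1q chains C1qa, C1qb and C1qc, made by macrophages, were higher by 0.55, 0.35 and 0.35, each in 3 of 3 pairs and none past the threshold. Complement C2 was higher by 0.31 in 3 of 3 pairs. The serpin Serpina3n (0.58), ceruloplasmin Cp (0.52) and haptoglobin Hp (0.30) did not pass, nor did C5ar1 (0.12), C1ra (0.04) and fibrinogen Fga (-0.18).

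Of 19 myeloid genes 15 were higher, with a median of 0.27. Where 0.296% of all genes rose, 1 of the 19 did. It was Lsp1, an actin-binding protein of leukocytes and endothelium, which read 96.0, 92.0 and 118 in controls 1 to 3 and 181, 218 and 189 in Aprt KO mice 1 to 3, without overlap, a difference of 0.78 (SE 0.13, limma adjusted p 0.0118). Its second probe set differed by 0.75. Lysozyme, Lyz2, read 146, 301 and 140.0 in controls 1 to 3 and 295, 559 and 575 in Aprt KO mice 1 to 3, so that Aprt KO 1 did not reach control 2, and differed by 1.19 (SE 0.38, limma adjusted p 0.408). The macrophage marker Cd68 (0.42), the leukocyte actin regulator Coro1a (1.03) and the adaptor Tyrobp (0.90) were higher in 3 of 3 pairs and did not pass. Coro1a passed with the random litter block (limma adjusted p 0.0363, 0.139 with the fixed one) and without pair 1 (0.0274). Cytokine and chemokine genes called were 0 of 12 by limma (2 higher and 0 lower at an unadjusted p under 0.05, and 2 rising and 0 falling with the litter block). The chemokines Cx3cl1 (0.57) and Cxcl14 (0.77) were those that rose with the block, at limma adjusted p of 0.0483 and 0.0237. MHC class II genes called were 0 of 8 by limma (0 higher and 0 lower at an unadjusted p under 0.05, and 0 rising and 0 falling with the litter block), with a median of 0.36, and were led by the invariant chain Cd74 (0.74, SE 0.44), called in the 6 arrays alone with the litter block (limma adjusted p 0.0406). For MHC class I genes the calls were 0 of 14 by limma (0 higher and 0 lower at an unadjusted p under 0.05, and 0 rising and 0 falling with the litter block) and the median 0.18.

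Of the called genes 3 belonged to none of these groups. Penk, the precursor of the enkephalin opioid peptides, read 362, 462 and 301 in controls 1 to 3 and 727, 898 and 564 in Aprt KO mice 1 to 3. Each pair rose, no groups overlapped, and the difference was 0.90 (SE 0.19, limma adjusted p 0.0492). Its other, dimmer probe sets differed by 0.14 and 0.24. Crip1, a small LIM-domain protein, read 454, 385 and 473 in controls 1 to 3 and 752, 616 and 986 in Aprt KO mice 1 to 3 and differed by 0.78 (SE 0.16, limma adjusted p 0.0442). Aard was the only gene to fall, reading 76.9, 126 and 90.9 in controls 1 to 3 and 31.4, 35.3 and 24.3 in Aprt KO mice 1 to 3. The Aprt KO mice were near the pseudocount, and the difference was -1.08 (SE 0.21, limma adjusted p 0.0342). Its 1-month means of 97.8 in controls and 30.3 in Aprt KO mice both lay under the filter of 118.6. Aard was tested through its 7-day means, 138.3 in controls and 199.5 in Aprt KO mice. With the filter on the 6 arrays or at the 60th percentile Aard was not tested, and 0 genes fell.

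Vessels, glomeruli and developmental genes shifted little. Endothelial genes called were 0 of 22 by limma (2 higher and 0 lower at an unadjusted p under 0.05, and 0 rising and 0 falling with the litter block), with 18 higher and a median of 0.22, the semaphorin and VEGF co-receptor Nrp1 being the largest at 0.56 (limma adjusted p 0.564, 0.0551 with the fixed and 0.0375 with the random litter block). Of 15 podocyte genes Tcf21 rose, a gene that the fibroblast list also holds, and 12 were higher (median 0.20). Over all genes 0.296% rose and 50% were higher. The imprinted cell cycle inhibitor Cdkn1c read 878, 542 and 627 in controls 1 to 3 and 1049.7, 914 and 940.5 in Aprt KO mice 1 to 3, with a difference of 0.51 that passed with the block (limma adjusted p 0.0154). Peg3, another imprinted gene, did the same at 0.72 (limma adjusted p 0.00377), and both stand in the list of 21 insulin-like and imprinted growth genes (median 0.20). Nephron formation genes called were 0 of 31 by limma (1 higher and 0 lower at an unadjusted p under 0.05, and 0 rising and 0 falling with the litter block), with a median of 0.11.

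Lists of the tubule had medians nearer 0. Medians were -0.03 over 14 brush border genes, -0.05 over 23 proximal solute carriers, -0.07 over 26 proximal enzymes, 0.09 over 21 genes of the thick limb and distal convoluted tubule and 0.09 over 20 of the collecting duct. Krt19 was the only member of these 5 lists to pass without the litter block. Higher were 5 of 14, 7 of 23, 7 of 26, 14 of 21 and 13 of 20 members in that order, so that the proximal lists leaned lower. Umod differed by -0.01, Egf by -0.04 and Kap by -0.05, each with overlapping groups. Respiratory chain genes called were 0 of 60 by limma (0 higher and 0 lower at an unadjusted p under 0.05, and 0 rising and 0 falling with the litter block), with 13 of 60 higher, 47 lower and a median of -0.05.

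Androgen and sex responsive genes were the exception to that, with 4 of 17 higher and a median of -0.22. Called were 0 of 17 by limma (1 higher and 4 lower at an unadjusted p under 0.05, and 1 rising and 3 falling with the litter block). Hsd17b11, a steroid dehydrogenase, read 3576, 7854 and 10148 in controls 1 to 3 and 3105, 5564 and 5081 in Aprt KO mice 1 to 3. The fall was in both male pairs and small in the female pair, -0.56 in all (SE 0.14, limma adjusted p 0.155, 0.0326 with the block). Odc1, the enzyme that makes putrescine, read 1477, 3967 and 2009 in controls 1 to 3 and 1320.4, 2169 and 1184 in Aprt KO mice 1 to 3, again lower mainly in males (-0.59, limma adjusted p 0.0309 with the block). Cyp7b1, an oxysterol hydroxylase, read 88.7, 1127 and 283 in controls 1 to 3 and 74.3, 374 and 61.4 in Aprt KO mice 1 to 3 (-1.16, limma adjusted p 0.0309 with the block). Hsd11b1 was lower by -0.83 and did not pass (limma adjusted p 0.326). It was called in 3 of 24 alternatives, at a limma adjusted p down to 0.00329. The gene that rose, Cyp4a14, a fatty acid hydroxylase, read 3466, 109 and 482 in controls 1 to 3 and 3791, 1196 and 3488 in Aprt KO mice 1 to 3. Its difference of 2.02 (SE 0.52, limma adjusted p 0.168, 0.0311 with the block, 0.0274 without the female pair) was small in the female pair, whose control was already bright. With 1 female pair, whether sex changes these differences was not tested.

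Other large changes that passed with the litter block and not without it were those of Apoe, the lipid carrier, at 1.19 (limma adjusted p 0.0157), and of the cardiac actin Actc1 at 1.41 (0.0409). Actc1 read 276, 252 and 229.7 in controls 1 to 3 and 465, 435 and 1792 in Aprt KO mice 1 to 3, so that Aprt KO 3 stood far above the rest, and without Aprt KO 2 it passed with no block (limma adjusted p 0.0303). Among the falls were the tight junction gene Cldn6, which read 50.3, 61.3 and 69.9 in controls 1 to 3 and 35.6, 12.9 and 19.2 in Aprt KO mice 1 to 3 (-0.81, limma adjusted p 0.0161, and 0.0165 with a pseudocount of 1 and no block), the medium-chain acyl-CoA dehydrogenase Acadm (-0.49, limma adjusted p 0.0418) and the ubiquitin ligase Znrf2 (-0.44, limma adjusted p 0.04).

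**Figure D3:**
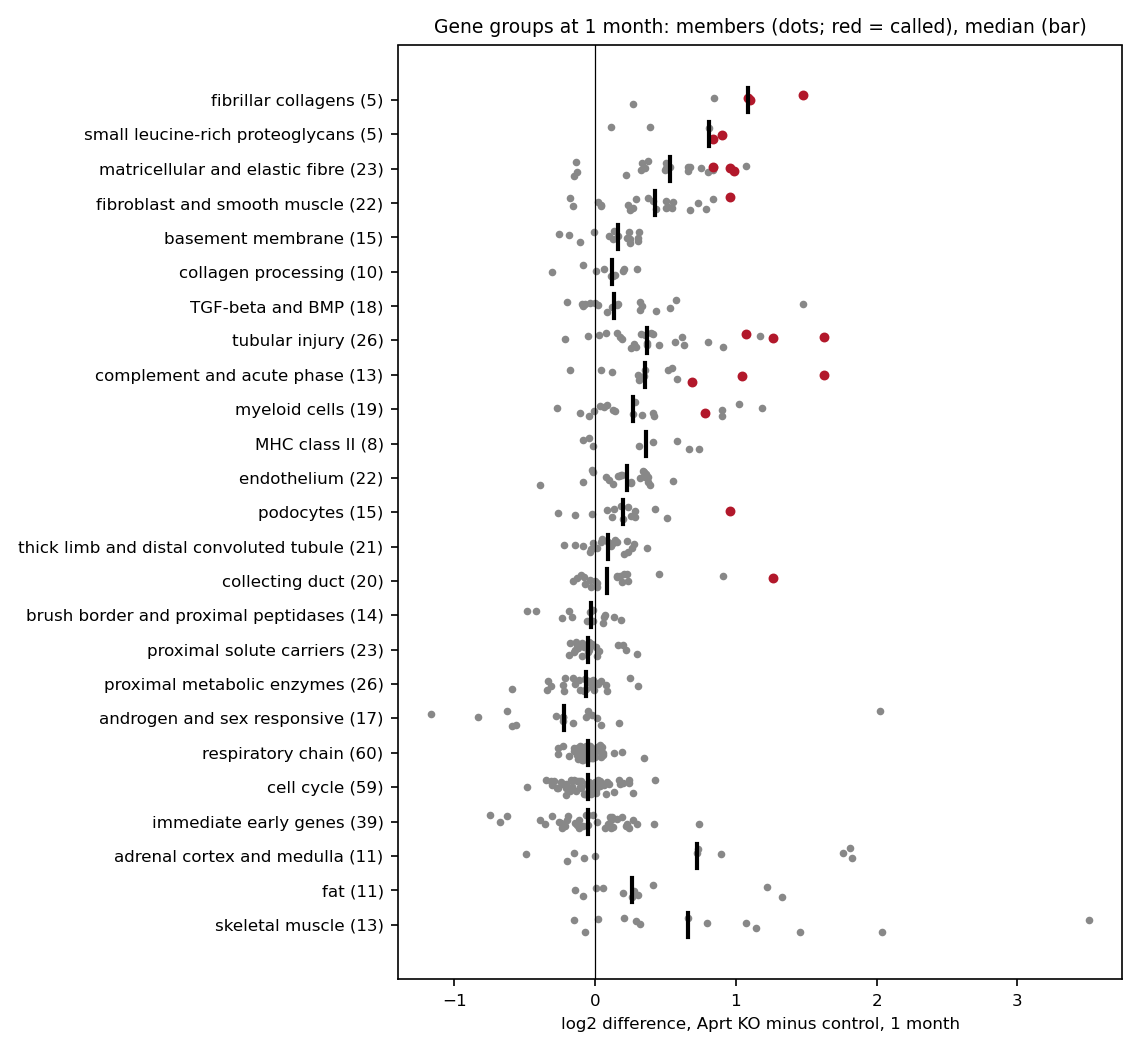
Log2 difference at 1 month (Aprt KO minus control) of the tested members of 25 gene lists, 1 dot per gene, red where called without the block, the bar marking the list median and the number in brackets the members tested. Collagens, proteoglycans and matricellular genes lie to the right of 0, tubule and energy genes at 0, and adrenal and skeletal muscle genes are scattered widely to the right with no call.

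Genes of tissues that adjoin the kidney were uneven between arrays. The skeletal muscle actin Acta1 read 9.50, 12.0 and 2.18 in controls 1 to 3 and 472, 7.14 and 3978 in Aprt KO mice 1 to 3, and the muscle light chain Myl1 140.1, 99.4 and 49.0 in controls 1 to 3 and 257, 155 and 2198 in Aprt KO mice 1 to 3. Aprt KO 3 stood far above the rest in both, and Aprt KO 1 was above every control in both. The cholesterol carrier Star of steroid-making adrenal cells read 13.7, 60.1 and 26.9 in controls 1 to 3 and 13.8, 628 and 306 in Aprt KO mice 1 to 3, and Cyp11a1, its next enzyme, 21.8, 98.8 and 10.8 in controls 1 to 3 and 20.1, 688 and 287 in Aprt KO mice 1 to 3. Aprt KO 2 and 3 were high in these and Aprt KO 1 was at the level of its littermate. The fat hormone Adipoq read 726, 657 and 306 in controls 1 to 3 and 771, 1550.4 and 1709 in Aprt KO mice 1 to 3, high in the same mice. None of these genes passed the test. By limma 0 of 13 muscle, 0 of 11 adrenal and 0 of 11 fat genes were called, with medians of 0.66, 0.72 and 0.26. At an unadjusted p under 0.05 there were 5, 1 and 1 higher and 0 lower. With the litter block 1 muscle gene, Casq1 (0.80, limma adjusted p 0.0265), and 1 adrenal gene, Scarb1 (0.89, limma adjusted p 0.00263), rose, where 1.25% of all genes did. Both were higher in 3 of 3 pairs without overlap.

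Summed over each whole list, the signal of 25 skeletal muscle genes was 6103, 5879 and 5294 in the controls and 7447, 5174 and 18511 in the Aprt KO mice, that of 13 adrenal genes 9376, 11564 and 9244 and 9122, 15237 and 11092, and that of 15 fat genes 14538, 14725 and 11559 and 12919, 19170.5 and 17793. A few genes bright on each array made up much of each sum, so dimmer ones such as Star and Cyp11a1 weigh little. In control 1 Pvalb of the muscle list read 4138, Fdx1 of the adrenal list 5146 and Gpd1 of the fat list 6389. By count 20 of 25, 8 of 13 and 13 of 15 were higher in Aprt KO. The urothelial gene Upk2 read 163, 186 and 144 in controls 1 to 3 and 406, 294 and 359 in Aprt KO mice 1 to 3, with 6 of 8 urothelial genes higher, and passed with the random litter block (limma adjusted p 0.0375, 0.109 with the fixed one). The muscle sum of the Aprt KO mouse was above that of its littermate in litters 1 and 3, and the adrenal and fat sums in litters 2 and 3. The median difference in litters 1, 2 and 3 was 1.23, 0.97 and 0.77 for the fibrillar collagens, 0.53, 0.51 and 0.86 for the small leucine-rich proteoglycans and 0.65, 0.54 and 0.48 for the matricellular and elastic fibre genes. The part of adjoining tissue in any of these differences was not tested.

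**Figure D4:**
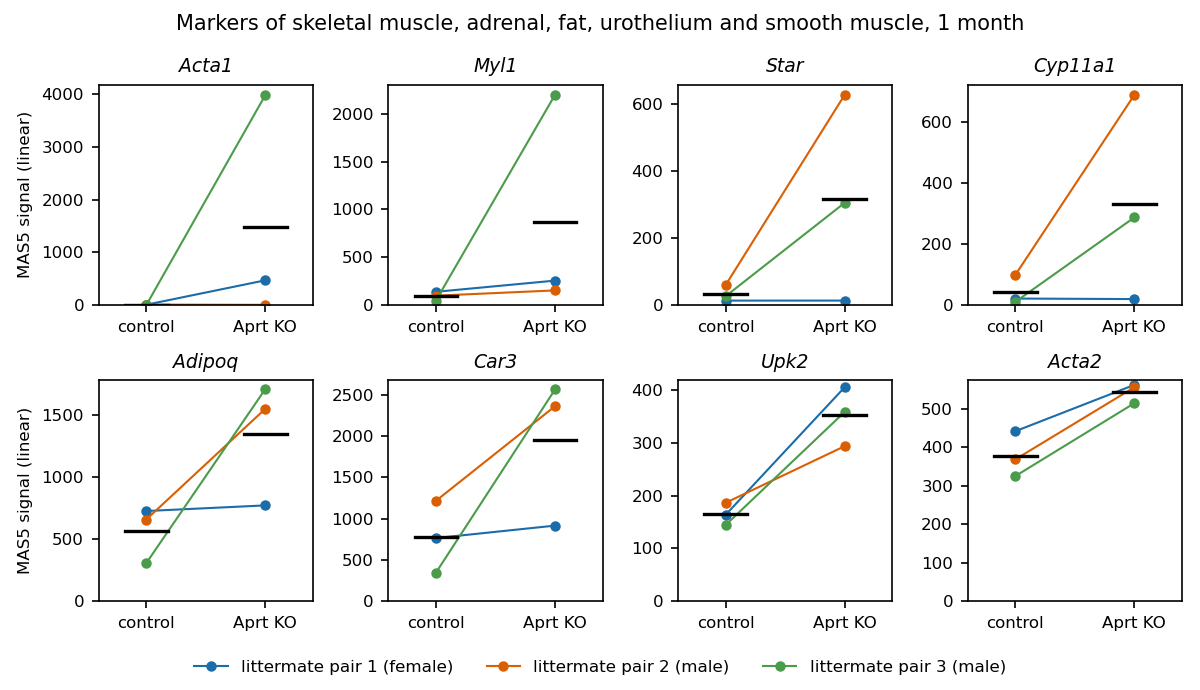
MAS5 signal (linear, vertical axes from 0) of 8 marker genes in the 1-month kidneys, 1 point per mouse, lines joining littermates and black bars giving group means. Muscle markers Acta1 and Myl1 are high in Aprt KO 3 and adrenal markers Star and Cyp11a1 in Aprt KO 2 and 3, whereas Upk2 and Acta2 are higher in the Aprt KO mouse of each litter.

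Set beside the 7-day mice, the 18 genes divided by whether they were also called there. At 7 days 3.22% of all genes were called, 2.54% higher. Of the 18 genes 7 were also called at 7 days on the same side, namely Lcn2, Krt19, S100a6, Cfi, Penk, Lsp1 and Serping1, the injury and complement genes among them. The other 11, with all called collagens, proteoglycans and matricellular genes, were not called at 7 days, which by itself does not show that the ages differ. The test of the difference between the ages (0.400% of all genes called, 0.261% with the lower value at 1 month) passed for 5 of the 18, and for 10 of them with the litter pair as a block.

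These 5 included Dcn, Lum and Tcf21, which were higher at 1 month and near or below their controls at 7 days. Dcn differed by -0.21 (SE 0.11) at 7 days, where its means were 4527 ± 663 in controls and 3909 ± 515 in Aprt KO mice (SD, n = 6), so that the 1-month difference was 1.04 larger (limma adjusted p 0.0141). For Lum the 7-day value was -0.20 and the gap 1.11 (limma adjusted p 0.0141), and for Tcf21 they were -0.11 and 1.07 (0.0222). The called collagens passed this test with the litter block and not without it. Col1a1 differed by 0.39 at 7 days and the gap was 1.08 (limma adjusted p 0.141, 0.00227 with the block), Col1a2 by 0.20 with a gap of 0.90 (0.0739, 0.00145 with the block) and Col3a1 by 0.27 with a gap of 0.82 (0.102, 0.00676 with the block).

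Lcn2 went the other way. At 7 days it rose by 3.47 (SE 0.17), from a mean of 280.3 ± 85.5 to 3321 ± 441 (SD, n = 6), and the 1-month minus the 7-day difference was -1.85 (limma adjusted p 0.00412). Aard was higher by 0.47 at 7 days and lower at 1 month, a gap of -1.55 (limma adjusted p 0.00814). S100a6 (1.19 at 7 days), Lsp1 (0.60) and Serping1 (0.62) had 7-day differences close to their 1-month ones, with gaps of -0.11, 0.19 and 0.07. Over the lists, the median at 7 days against 1 month was 0.27 against 1.08 for fibrillar collagens, -0.21 against 0.81 for small leucine-rich proteoglycans and 0.64 against 0.37 for tubular injury genes.

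**Figure D5:**
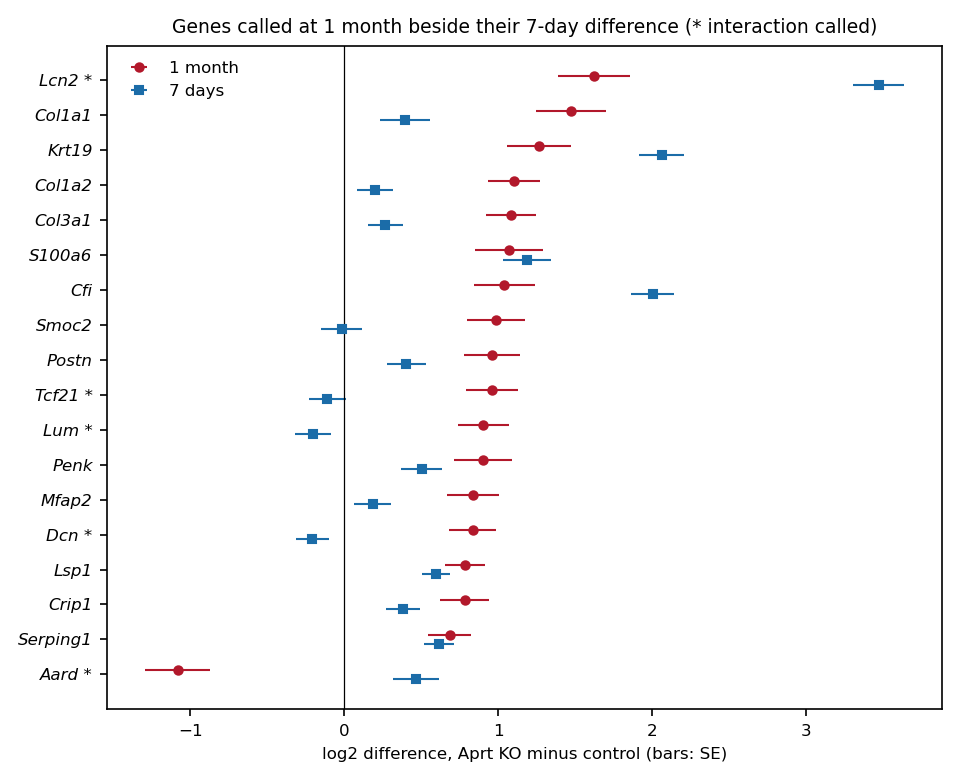
Log2 difference (Aprt KO minus control) with its SE at 1 month (red circles) and at 7 days (blue squares) for the 18 genes called at 1 month, ordered by the 1-month value. Asterisks mark the 5 genes whose difference between the ages was called, and Lcn2, Krt19 and Cfi lie further right at 7 days while the collagens and proteoglycans lie further right at 1 month.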

How the data were processed

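Biotin-labelled cRNA from total kidney RNA was read on Affymetrix arrays. The authors deposited linear intensity values of 12488 probe sets, made with GCOS and MAS5 as the submitters' processing notes name them, and the sources used here give neither version nor scaling target. The platform annotation gave 10833 of them 1 symbol, 396 several and 1193 none, and 66 were controls. Genes were represented by their brightest probe set and kept at a mean signal over 18 arrays of at least the 40th percentile (118.6), leaving 5744 of 8251. A gene could pass this filter through its 7-day signals alone. Aard, Cfi, Tgfb1, Mfap4, Vcan and Cldn6 were among those with both 1-month means under it. With limma 3.58.1 (R 4.3.3), log2(signal + 29) of the 18 arrays was modelled by group means and a sex term per age (12 residual degrees of freedom). P-values were adjusted by Benjamini-Hochberg over all genes. Promoter windows came from RefSeq. The fit was also run on simulated data with independent arrays and no litter or sex effect, so that run does not bear on either. The number of arrays limits the precision.

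The labels give the pairing by litter, so values with the litter as a block (7 residual degrees of freedom) are given where they change a call. Deviations from the group means correlated at 0.602, 0.539 and 0.563 within litters and at -0.435 to -0.154 between them. With the group means taken out, positive values within litters force negative ones between them. Pair 1 was also the only female pair, so its value does not separate litter from sex. Members and lists were chosen with earlier results of these data known. Named were all called genes, the 6 largest rises and 6 largest falls called only with the block, called members and up to 4 smallest p of each list described, all fibrillar collagens, small leucine-rich proteoglycans and complement genes, fixed markers, and the 5 largest and smallest differences between the ages. Members named because they passed with the block (Fbln1, Fbln2, Mfap4, Sparcl1, Mgp, Vcan, Tgfbi, Krt18, Tmsb10, Anxa1 and Anxa2) were chosen after their values were seen. Alternatives changed the pseudocount, filter, probe set rule, scaling, block, samples, sex term and variance model.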

Additional observations from a re-analysis of the deposited data

Results flagged for a closer look

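The difference between Aprt KO and control kidneys was itself different at 1 month and at 7 days in 23 genes, 15 with a 1-month value below the 7-day value and 8 above, by the limma test of the interaction between genotype and age. Blocking on litter brought this to 93, 55 above and 38 below, with all 23 among them. Every value below is the 1-month minus the 7-day log2 difference, with the limma adjusted p where given.

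The most negative value was that of Sprr2f, of the small proline-rich family that stiffens epithelia, at -5.37 (3.2e-06). At 1 month it read 51.4, 100.3 and 28.8 in controls 1 to 3 and 10.5, 94.1 and 50.4 in Aprt KO mice 1 to 3, dim in both groups, whereas at 7 days the means were 70.8 ± 42.9 in controls and 3297 ± 685 in Aprt KO mice (SD, n = 6). The interleukin-1 receptor antagonist Il1rn had -2.47 (0.0141), the NF-kB family member Bcl3 -2.41 (4.29e-05), and the immediate early transcription factors Fos and Egr2 -2.37 (0.00412) and -2.24 (0.0043). Their 1-month differences were 0.08, -0.02, -0.63 and -0.31. The acute phase serpin Serpina3n had -2.08, Lcn2 -1.85, the oncostatin M receptor Osmr -1.71, the cytokine signalling inhibitor Socs3 -1.55, Aard -1.55, clusterin Clu -1.37 and the lipopolysaccharide co-receptor Cd14 -1.33. The Sprr family members Sprr2i and Sprr2g had -1.23 and -1.06, and Tmem176a -0.91.

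The positive values were led by Aldh1a3, an enzyme of retinoic acid synthesis, at 1.70 (0.0323), and Cdkn1c at 1.30 (0.00409). Aldh1a3 read 133, 149 and 184 in controls 1 to 3 and 202, 243 and 591 in Aprt KO mice 1 to 3 at 1 month, a difference of 0.89, and differed by -0.82 at 7 days. Lum followed at 1.11, Tcf21 at 1.07, Dcn at 1.04, the anion exchanger Slc4a1 at 0.97, Id3 at 0.87 and the retinol saturase Retsat at 0.85. Cdkn1c was called lower at 7 days (-0.79) and read 0.51 at 1 month.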

How the results depend on the processing

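The count of genes called at 1 month, 18 as reported, ranged from 1 to 117 over the alternatives. It was 28 with a pseudocount of 1 and 7 with one at the 40th percentile. It was 9 with the filter on the 6 arrays, 9 with every probe set on its own, 10 with the mean over probe sets and 9 with arrays centred on the median. The replicate block by litter gave 79 as a fixed and 117 as a random effect. The 6 arrays alone gave 1, and 10 with the block. Leaving out 1 array gave 4 to 10, and leaving out pair 1, 2 or 3 gave 7, 4 or 5. The other settings, among them quantile normalization, no filter and no sex term, gave 12 to 18. For the 23 genes whose difference changed with age the count was 13 with the filter on the 6 arrays, 93 and 142 with litter as a fixed and a random block, 8 to 21 with 1 array left out and 15, 21 or 14 without pair 1, 2 or 3. Without control 1 or Aprt KO 1 it was 8 and without both 15; the cause was not tested. In all, 16 of the 18 called genes kept their sign in each alternative run. The exceptions were Lcn2 (-0.0066) and Col1a2 (-0.15) with the filter on the 6 arrays, where another probe set stands for the gene. No gene was called in each alternative. The sign turned for 11 genes that were not called, Ogn (-0.099 to 0.35 without 1 array, -0.085 to 0.35 without 1 pair), Hp (-0.071 to 0.56 without 1 array, 0.064 to 0.56 without 1 pair), Fga (-0.39 to 0.064 without 1 array, -0.24 to -0.093 without 1 pair), C5ar1 (-0.22 to 0.45 without 1 array, -0.078 to 0.31 without 1 pair), C1ra (-0.069 to 0.10 without 1 array, -0.069 to 0.12 without 1 pair), Umod (-0.20 to 0.22 without 1 array, -0.073 to 0.062 without 1 pair), Egf (-0.21 to 0.095 without 1 array, -0.10 to 0.035 without 1 pair), Kap (-0.17 to 0.058 without 1 array, -0.13 to 0.058 without 1 pair), Sprr2f (-0.66 to 0.19 without 1 array, -0.55 to 0.19 without 1 pair), Il1rn (-0.27 to 0.45 without 1 array, -0.25 to 0.43 without 1 pair) and Bcl3 (-0.19 to 0.18 without 1 array, -0.23 to 0.25 without 1 pair); the cause was not tested. Several called genes were dim, and 3 mice per group limit what could be called.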

Other observations

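Genes of purine and polyamine metabolism, Aprt being an enzyme of purine salvage, had 10 of 22 members higher at 1 month. Called were 0 of 22 by limma (1 higher and 1 lower at an unadjusted p under 0.05, and 0 rising and 1 falling with the litter block), with a median of -0.01, the polyamine enzyme Odc1 being the fall. The nucleoside transporter Slc29a1 read 388, 217 and 314 in controls 1 to 3 and 562, 369 and 451 in Aprt KO mice 1 to 3 and was higher in 3 of 3 pairs by 0.56 (limma adjusted p 0.564, 0.0857 with the fixed and 0.0492 with the random litter block). Genes that bind crystals or inhibit stones had a median of 0.17, with 0 of 13 by limma (3 higher and 0 lower at an unadjusted p under 0.05, and 3 rising and 0 falling with the litter block); those that passed with the block were Anxa1, Anxa2 and Mgp. In the glutathione and oxidative stress list the calls were 0 of 38 by limma (4 higher and 0 lower at an unadjusted p under 0.05, and 1 rising and 0 falling with the litter block), the microsomal transferase Mgst1 (0.72) being the one that rose with the block (limma adjusted p 0.0487, 0.0552 with the random litter block).

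Immediate early genes, which respond within minutes to growth factors and stress, split at 1 month. Called were 0 of 39 by limma (1 higher and 1 lower at an unadjusted p under 0.05, and 1 rising and 0 falling with the litter block), 17 of 39 were higher and the median was -0.05. Klf4, an epithelial transcription factor, read 187, 99.3 and 145 in controls 1 to 3 and 241, 289 and 233 in Aprt KO mice 1 to 3, without overlap, and differed by 0.74 (limma adjusted p 0.149, 0.04 with the litter block). The stress gene Gadd45g read 580.3, 509.6 and 736 in controls 1 to 3 and 384, 489 and 259.5 in Aprt KO mice 1 to 3, lower in 3 of 3 pairs by -0.67 (limma adjusted p 0.47). Cell cycle genes called were 0 of 59 by limma (0 higher and 1 lower at an unadjusted p under 0.05, and 0 rising and 0 falling with the litter block), with 20 higher and a median of -0.05, and the cyclin Ccne1 was lower in 3 of 3 pairs by -0.48 (limma adjusted p 0.91).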
